A study of Mus musculus with 12 samples.

Results

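Collagen chain genes were taken as all genes whose symbol consists of Col, a number, the letter a and a number, and that are listed in at least 1 library. They number 42 of the 16145 genes listed: 11 chains of fibril-forming collagens, 6 chains of the basement membrane collagen type IV and 25 chains of other collagens. RNA was sequenced from mouse bone marrow-derived macrophages, cells grown from marrow for 7 days with the growth factor M-CSF in medium with serum. There were 4 groups with 3 libraries in each. Cells of wild-type mice were kept in vehicle for 12 h, in 15 µM hemin, the oxidised form of iron-containing heme, for 12 h, or in 120 µM 4-OI for 15 h. 4-OI is 4-octyl itaconate, an ester of itaconate that cells take up, so its libraries differ from the vehicle libraries in hours as well as in compound. Cells labelled Irg1KO were kept in vehicle for 12 h. Irg1, now named Acod1, encodes the enzyme that makes itaconate. No label ties the 3 replicates to different mice or dishes, and the p-values therefore cover the variation among these libraries, which may be technical.

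Collagens are triple helices of 3 chains, called α chains, each rich in glycine and proline. Fibrillar collagens (types I, II, III, V and XI among them) build the load-bearing fibres of skin, bone, tendon and cartilage, type IV forms the sheet under epithelia and around vessels, and type VI forms beaded filaments around cells. Other chains coat fibrils, anchor the basement membrane or span the cell membrane. New chains are hydroxylated and folded in the endoplasmic reticulum, trimmed outside the cell and cross-linked by lysyl oxidases. Fibroblasts, osteoblasts and smooth muscle cells are the main makers of fibrillar collagen. Macrophages are better known for breaking collagen down, although they are reported to make chains of types VI and VIII.

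Library totals ranged from 9405112 to 22390882 expected counts. Levels below are CPM, expected counts relative to the library total after TMM scaling between libraries, or, where genes are compared with one another, FPKM, which is also per length. The level of Acod1 did not separate the genotypes: it was 21.7, 13.6 and 26.3 CPM in the knockout libraries and 27.5, 30.5 and 25.0 CPM in the wild-type vehicle libraries, and the ranges overlapped. The estimated length of its transcripts did separate them, at 3132 to 3382 bases in the knockout and 2594 to 2653 bases in all 9 wild-type libraries. Which part of the gene is deleted is not given in the sources used here, and knockout below means the libraries labelled Irg1KO. The macrophage markers were high in all 12 libraries, with 10 genes summing to between 24455 and 28501 CPM. Members were tested in a fit across all 12148 genes that passed a filter on low counts, which 27 of the 42 members passed. A gene was called changed at a Benjamini-Hochberg adjusted p under 0.05 in edgeR's quasi-likelihood test.

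Collagen transcripts made up a small share of all counts in wild-type cells and a larger one in the knockout. They took 0.303%, 0.251% and 0.310% of the expected counts in the 3 vehicle libraries, and 1.68%, 1.63% and 1.47% in the knockout libraries. The shares were 0.304%, 0.316% and 0.278% with 4-OI and 0.228%, 0.290% and 0.246% with hemin. The knockout libraries stood apart from the other 9, whose shares overlapped. In summed FPKM the collagen genes reached 482 ± 55.2 (SD, n = 3, as for all means below) in vehicle, 2709 ± 172 in the knockout, 501 ± 32.9 with 4-OI and 428 ± 56.7 with hemin. In these bulk samples, more cells that make a transcript and more of that transcript per cell cannot be told apart.

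Type I collagen led in every group. In vehicle, Col1a1 was at 143 ± 21.4 FPKM and Col1a2, its partner chain, at 131 ± 13.9 FPKM, and the ranges of the pair overlapped. The next chains were Col5a1 at 27.7 ± 2.43, Col2a1 at 27.5 ± 3.58, Col5a2 at 26.9 ± 3.09 and Col3a1 at 24.9 ± 3.06 FPKM, and each of these overlapped its neighbour in that order. Col6a1 at 18.7 ± 2.56 and Col6a2 at 13.0 ± 1.33 FPKM followed. In the knockout the order below type I changed: Col3a1 at 194 ± 11.7 and Col2a1 at 188 ± 19.0 FPKM, whose ranges overlapped, came before Col5a1 at 141 ± 9.57 and Col6a1 at 132 ± 4.94 FPKM, whose ranges overlapped too. Col3a1 held 5.15 ± 0.0504% of collagen FPKM in vehicle and 7.17 ± 0.0903% in the knockout, and Col1a2 held 27.2 ± 0.393% and 25.5 ± 0.248%.

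**Figure D1:**
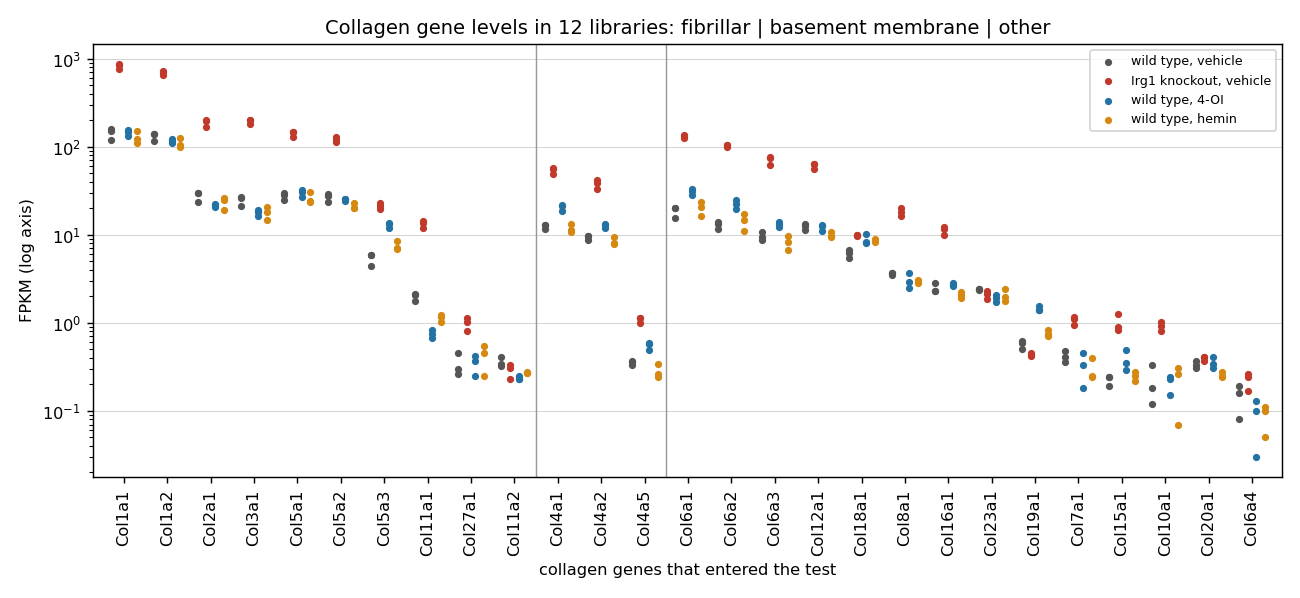
FPKM on a log axis for the 27 collagen genes that entered the test, 1 point per library, coloured by group and ordered by class and level. The knockout points lie above the other groups for most genes, while Col23a1, Col11a2 and Col20a1 differ little between the groups. Col11a2 nevertheless lies lower with 4-OI and hemin than in vehicle, Col20a1 is lowest with hemin, and Col19a1 is highest with 4-OI.

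The genotype comparison asked how cells labelled Irg1 knockout differ from wild type when both receive vehicle. Most collagen genes that could be tested were higher in the knockout: 22 of 27 rose, where 23.5% of all genes tested were called higher, and 1 of 27 fell, where 16.3% were called lower. Of these, 21 rose at least 2-fold, against 11.5% of all genes. The median log2 fold change was 2.21 over the 27 and -0.00033 over all genes tested. By class, 9 of 10 fibrillar chains, 3 of 3 type IV chains and 10 of 14 other chains rose. The fold in summed FPKM was 5.66 for fibrillar, 4.20 for basement membrane and 5.84 for other chains.

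**Figure D2:**
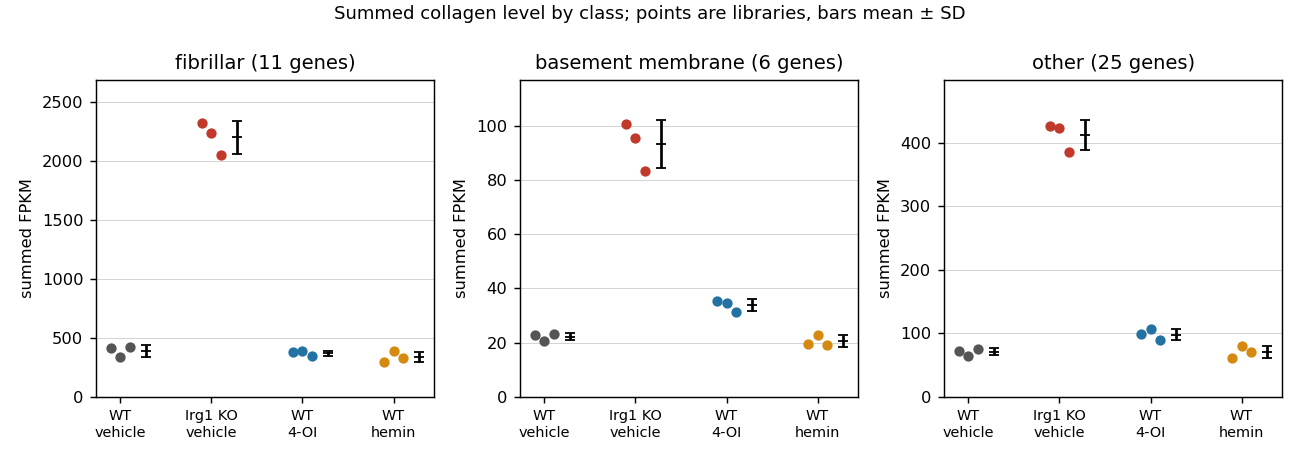
Summed FPKM of each collagen class in each library (points) with the group mean ± SD (black marks), each axis starting at 0. The knockout libraries lie above all others in each class, and the 4-OI libraries lie above vehicle for the 6 basement membrane and 25 other genes.

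The major fibrillar chains all rose in the knockout. Col1a1 was at 862, 682 and 903 CPM in vehicle and at 5110, 4916 and 4522 CPM in the knockout. Col1a2 was at 690, 579 and 694 CPM in vehicle and at 3689, 3547 and 3314 CPM in the knockout. For both chains the second vehicle library was the lowest of its group, and every knockout library lay far above vehicle. The log2 fold change was 2.57 (SE 0.14) for Col1a1 and 2.43 (SE 0.10) for Col1a2, with adjusted p = 4.05e-07 and 4.06e-10 by edgeR's quasi-likelihood test. Col3a1, the chain of the thin fibres of vessels and skin, was at 138, 115 and 144 CPM in vehicle and at 1094, 1087 and 987 CPM in the knockout. Its change of 3.00 (SE 0.12, adjusted p = 2.48e-08) was the largest of the fibrillar chains.

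Type V collagen limits the diameter of type I fibrils, and its 3 chains rose together. Col5a1 went from 205 to 240 CPM across the vehicle libraries to 1085 to 1217 CPM across the knockout libraries (log2 fold change 2.38, SE 0.11). Col5a2 went from 150 to 187 CPM to 747 to 838 CPM (2.20, SE 0.07). Col5a3 was at 34.4, 26.2 and 34.5 CPM in vehicle and at 137, 117 and 128 CPM in the knockout (2.03, SE 0.11). In none of the 3 did the groups overlap, and the adjusted p of edgeR's test was at most 1.01e-08.

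Types II and XI are the fibrillar collagens of cartilage, and their chains did not move alike. Col2a1 was at 144, 115 and 146 CPM in vehicle and at 1001, 994 and 837 CPM in the knockout (2.81, SE 0.13, adjusted p = 1.28e-07 by edgeR's test). Col11a1 was at 15.4, 13.1 and 15.9 CPM in vehicle and at 108, 102 and 91.9 CPM in the knockout (2.79, SE 0.08). Both were higher in every knockout library. Col11a2 lay between 1.67 and 2.12 CPM in vehicle and between 1.42 and 1.66 CPM in the knockout and did not pass the test (-0.26, SE 0.24, adjusted p = 0.413). Col27a1, another fibrillar chain, went from 1.84 to 2.80 CPM to 5.22 to 7.81 CPM (1.56, SE 0.20). Other cartilage markers were low beside Col2a1, and their sum, to which Comp contributes, was higher in the knockout. The 7 chondrocyte genes of a fixed list summed to between 0.562 and 1.31 CPM in vehicle and between 1.48 and 2.45 CPM in the knockout. With 4-OI they summed to between 1.38 and 2.36 CPM, and with hemin to between 0.530 and 1.17 CPM. Comp, the only gene of the list that was tested, was called higher in the knockout (1.62). Comp was low in vehicle, and the low-count filter admits a gene on the libraries of a single group. The call is therefore not taken as support. Sox9 was listed but did not pass the low-count filter. Acan, Matn1 and Hapln1 stayed under 10 expected counts in every library, and Cnmd and Snorc were listed in none. The part of cartilage cells in the Col2a1 result was not tested.

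Sequence upstream of 4 fibrillar chains is given because all 4 rose in the knockout, while with 4-OI and hemin, as described below, Col5a3 rose, Col11a1 fell and Col3a1 and Col5a1 did not pass the test. Each run holds the 250 bases before the RefSeq transcript start, build GRCm38.p6, read 5′ to 3′ on the strand of the gene, with matches on either strand in capitals. The motifs searched for were the CCAAT box, the letters TATAAA of the TATA box and the letters GGGCGG of the GC box.
Col3a1, chr1:45311288-45311537, plus strand: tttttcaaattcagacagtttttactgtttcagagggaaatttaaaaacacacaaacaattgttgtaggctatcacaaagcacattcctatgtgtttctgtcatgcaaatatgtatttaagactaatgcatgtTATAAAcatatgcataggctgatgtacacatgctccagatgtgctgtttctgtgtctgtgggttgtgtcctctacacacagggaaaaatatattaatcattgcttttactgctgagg
Col5a1, chr2:27886175-27886424, plus strand: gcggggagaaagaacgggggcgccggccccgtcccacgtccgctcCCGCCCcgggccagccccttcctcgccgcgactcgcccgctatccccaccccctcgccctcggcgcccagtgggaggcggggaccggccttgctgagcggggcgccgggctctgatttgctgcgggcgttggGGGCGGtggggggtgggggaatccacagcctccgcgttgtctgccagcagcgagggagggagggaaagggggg
Col5a3, chr9:20815068-20815317, minus strand: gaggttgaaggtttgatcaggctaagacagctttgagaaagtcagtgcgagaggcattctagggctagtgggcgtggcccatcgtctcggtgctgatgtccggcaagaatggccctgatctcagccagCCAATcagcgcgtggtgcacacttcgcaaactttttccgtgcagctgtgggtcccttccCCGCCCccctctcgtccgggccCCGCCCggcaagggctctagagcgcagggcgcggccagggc
Col11a1, chr3:114030290-114030539, plus strand: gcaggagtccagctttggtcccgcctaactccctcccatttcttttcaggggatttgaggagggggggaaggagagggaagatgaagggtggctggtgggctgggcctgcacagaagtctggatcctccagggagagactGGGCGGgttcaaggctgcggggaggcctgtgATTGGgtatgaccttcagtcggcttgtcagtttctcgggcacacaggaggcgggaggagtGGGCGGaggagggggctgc
The Col3a1 run has a single TATAAA match and is 35.2% G and C, while the other runs hold GGGCGG matches on one strand or the other and are 62.4% to 76.4% G and C. Such windows were found for 33 of the 42 collagen genes, which have 36 windows, as a gene can have more than 1. CCAAT occurred in 13 of the 36 windows and in 33.8% of all 32851 windows of that length. GGGCGG occurred in 20 of the 36 and in 32.7%, and TATAAA in 5 of the 36 and in 12.4%. TGANTCA, the letters of the AP-1 motif, occurred in 1 of the 36 and in 6.75% of all windows. TGACNNNGC, the core of the antioxidant response element, which can overlap the previous motif, occurred in 5 of the 36 and in 10.2%. A match describes letters only and is not evidence of a bound factor.

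Type IV collagen chains also rose. Col4a1 was at 81.8, 75.1 and 82.6 CPM in vehicle and at 378, 361 and 320 CPM in the knockout (log2 fold change 2.15, SE 0.07, adjusted p = 1.34e-14 by edgeR's test). Col4a2, the chain with which it forms the common trimer, was at 59.7, 54.4 and 59.7 CPM and at 264, 246 and 213 CPM (2.06, SE 0.08). Col4a5, found in kidney and other specialised membranes, went from 2.08 to 2.27 CPM to 6.40 to 7.30 CPM (1.67, SE 0.17). The groups did not overlap for these chains. Col4a3, Col4a4 and Col4a6 stayed at or under 4 expected counts throughout and lay outside the test.

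Among the other collagens, the largest changes were in type VI. Col6a1 was at 75.0, 59.8 and 76.5 CPM in vehicle and at 527, 504 and 492 CPM in the knockout (2.86, SE 0.13). Col6a2 was at 47.8, 41.2 and 50.2 CPM and at 382, 377 and 358 CPM (3.02, SE 0.14). Col6a3 was at 87.5, 82.4 and 99.6 CPM and at 706, 728 and 600 CPM (2.93, SE 0.13). These 3 chains form the type VI monomer, and each rose in every knockout library with an adjusted p of at most 1.05e-07 by edgeR's test. Col6a4, a chain that can replace Col6a3, lay at 1.13, 0.562 and 1.14 CPM in vehicle and at 1.01, 1.48 and 1.34 CPM in the knockout and was not called (0.53, SE 0.34, adjusted p = 0.230).

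Of the chains that decorate fibrils (the FACIT group), Col12a1 went from 127 to 146 CPM to 647 to 737 CPM (2.36, SE 0.06) and Col16a1 from 11.2 to 13.0 CPM to 49.2 to 62.4 CPM (2.28, SE 0.09). Col19a1 was the only collagen gene called lower in the knockout: it was at 6.50, 6.14 and 5.42 CPM in vehicle and at 4.56, 4.54 and 4.97 CPM in the knockout (-0.38, SE 0.14, adjusted p = 0.0263 by edgeR's test). The groups did not overlap, but the call was lost with DESeq2 (-0.40, adjusted p = 0.0592), on both FPKM scales, and without either of the first 2 replicates of each group. Col20a1 lay between 1.82 and 2.15 CPM in vehicle and between 2.16 and 2.39 CPM in the knockout and was not called (0.23, adjusted p = 0.432).

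The 2 multiplexins, basement membrane proteoglycans whose C-terminal fragments include endostatin, moved unequally. Col18a1, the precursor of endostatin, was at 26.3, 32.9 and 29.8 CPM in vehicle and between 48.5 and 50.5 CPM in the knockout (0.74, SE 0.08, adjusted p = 5.22e-09 by edgeR's test), the smallest of the 22 increases. Col15a1 went from 0.954 to 1.22 CPM to 4.26 to 6.59 CPM (2.21, SE 0.23). Col8a1, a short-chain collagen of vessels and the eye, was at 17.8, 18.0 and 17.1 CPM in vehicle and at 89.2, 98.9 and 82.0 CPM in the knockout (2.35, SE 0.09). Col10a1, the collagen of hypertrophic cartilage, went from 0.346 to 0.962 CPM to 2.45 to 3.04 CPM (2.30, SE 0.33), and Col7a1, of the anchoring fibrils, from 3.24 to 4.29 CPM to 8.61 to 10.6 CPM (1.40, SE 0.18). Col23a1, a transmembrane chain, stayed at 20.8 to 21.0 CPM in vehicle and 16.4 to 20.6 CPM in the knockout without a call (-0.16, SE 0.10, adjusted p = 0.189). Col23a1 had fractional expected counts in 11 of 12 libraries, so some of its reads were shared with other transcripts.

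The 15 members outside the test reached at most 20 expected counts. Col24a1, Col8a2 and Col14a1 are named here after their values were seen. Col24a1, a fibrillar chain of developing bone, had 6, 4 and 2 expected counts in vehicle and 13, 19 and 9 in the knockout. Col8a2, which pairs with Col8a1, had 0, 1 and 0 in vehicle and 7, 8 and 6 in the knockout. Col14a1 reached 20 in a single knockout library, with 11 and 5 in the others and 9, 13 and 5 in vehicle, so the knockout overlapped vehicle. It had 1, 4 and 1 with 4-OI, below every vehicle library, and 8, 3 and 4 with hemin, which overlapped vehicle. A gene missing from a library's file counts as 0 here, and the lowest level listed was 0.01 FPKM.

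Genes that process collagen moved with the chains to different degrees. The counts in each list stand beside 23.5% of all genes tested called higher and 16.3% called lower. All 13 tested genes of procollagen cleavage and cross-linking rose, with a median log2 fold change of 2.10, against -0.00033 over all genes tested. Loxl3 and Lox, which cross-link collagen, were at 240 ± 17.1 and 813 ± 78.1 CPM in the knockout and 74.4 ± 4.05 and 138 ± 9.42 CPM in vehicle (1.70, SE 0.06, and 2.56, SE 0.06). Bmp1 and Adamts2, which remove the C- and N-terminal propeptides, rose by 1.97 (SE 0.07) and 2.19 (SE 0.08). Of 20 tested genes of hydroxylation, folding and secretion, 16 rose and 1 fell, with a lower median of 0.73. Fkbp10, a collagen chaperone of the endoplasmic reticulum, rose by 2.22 (SE 0.07), and P4ha3 and P3h4, which serve proline and lysine hydroxylation, by 2.43 (SE 0.12) and 2.40 (SE 0.13), and Creb3l1, a transcription factor that activates collagen genes in osteoblasts, by 1.81 (SE 0.09). Of 10 tested collagen receptors and uptake genes, 7 rose, among them Mrc2, an endocytic collagen receptor, at 2.32 (SE 0.09), Ctsk, a collagen-cleaving protease, at 1.70 (SE 0.08), Ddr1, a collagen-activated kinase, at 2.18 (SE 0.11), and Itga1, an integrin chain, at 2.00 (SE 0.15). Lair1, an inhibitory collagen receptor of leukocytes, fell by 0.40 (SE 0.05) on the log2 scale.

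Markers of stromal cells moved with the collagen genes. All 12 tested genes of a fibroblast and marrow stroma list without collagens rose, with a median of 2.20, and the 14 genes of the list summed to between 382 and 437 CPM in vehicle and between 1748 and 1963 CPM in the knockout. Dcn and Lum of that list stayed under 10 expected counts in every library. The osteoblast list rose in 5 of 5 tested genes (81.5 to 101 CPM against 14.3 to 16.0 CPM, with Bglap listed in no library and Dmp1 and Phex under 10 expected counts), and the pericyte and smooth muscle list in 7 of 7 (1336 to 1596 CPM against 322 to 364 CPM). By name, Postn rose by 1.53 (SE 0.06), Pdgfra by 2.81 (SE 0.12), Cxcl12 by 3.49 (SE 0.10), Alpl by 3.44 (SE 0.15), Sp7 by 2.17 (SE 0.13) and Cnn1 by 1.94 (SE 0.08). Of 10 macrophage markers, 2 rose (Adgre1 by 0.33 and Cd14 by 0.35) and 2 fell (Csf1r by 0.22 and C1qb by 0.13), and their sum overlapped between the genotypes. Of 5 tested endothelial markers, 2 fell, and of 4 tested neutrophil markers, 3 fell and 1 rose, where 16.3% of all genes were called lower and 23.5% higher. The part of these other cell types in the collagen result was not tested.

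**Figure D3:**
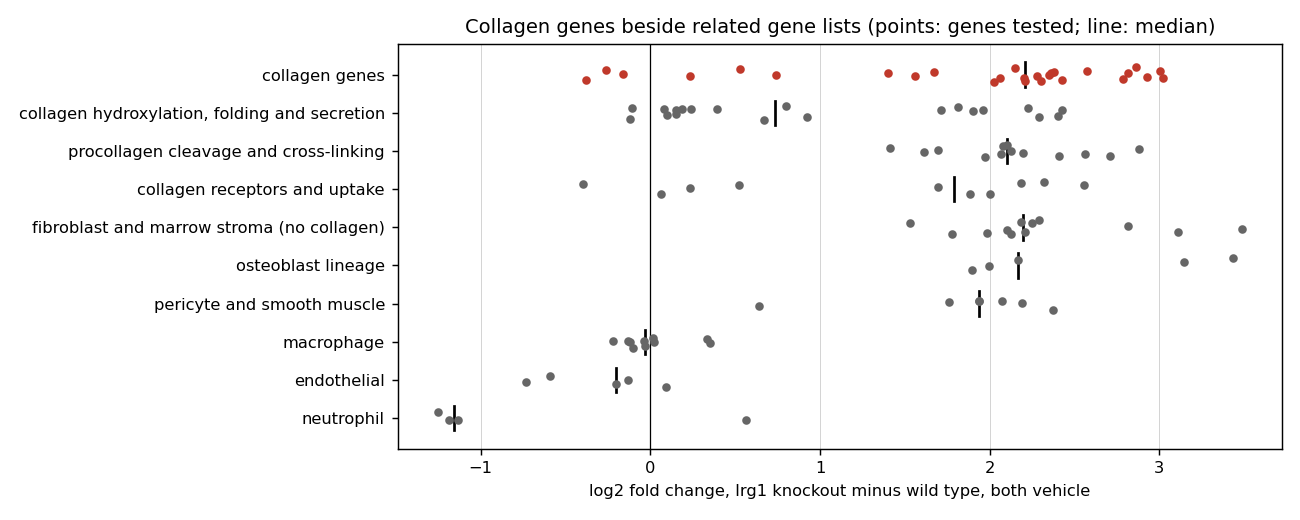
Log2 fold change, knockout minus wild type with vehicle, of each tested gene (points, spread vertically for visibility) in the collagen set and in 9 other lists, with the median of each as a line. The medians of the collagen genes (2.21), the cleavage and cross-linking genes (2.10) and the stroma genes (2.20) lie near one another, and that of the macrophage markers lies at -0.03.

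The 4-OI comparison asked what the itaconate ester did in wild-type cells. It shares its vehicle libraries with the other 2 comparisons. Of 27 members, 11 were higher, where 25.4% of all genes tested were called higher, and 1 was lower, where 25% were called lower. The median of the 27 was 0.19, against -0.0031 over all genes tested. The calls differed by class: 1 of 10 fibrillar chains rose and 1 fell, 3 of 3 type IV chains rose, and 7 of 14 other chains rose. Basement membrane chains held 6.73 ± 0.188% of collagen FPKM with 4-OI and 4.63 ± 0.281% in vehicle, and fibrillar chains 73.7 ± 0.355% and 80.7 ± 0.874%. Summed fibrillar FPKM was 0.948 times vehicle, and 1.06 times on the CPM scale, so it showed no direction.

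**Figure D4:**
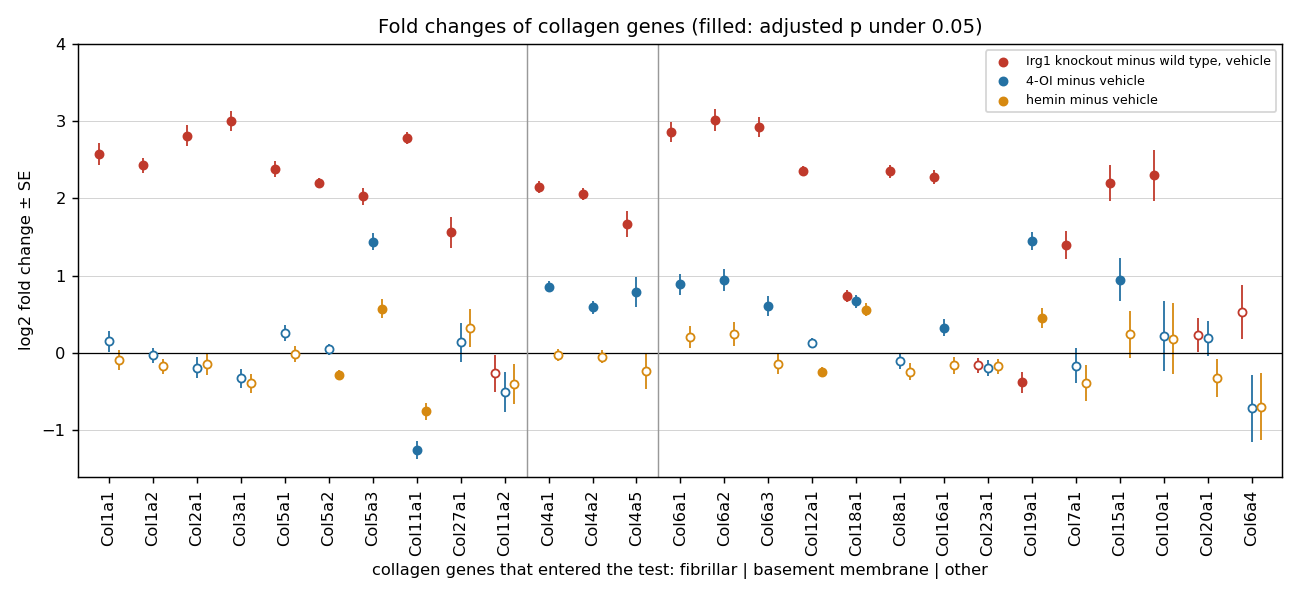
Log2 fold change ± SE of the 27 tested collagen genes in the 3 comparisons with wild-type vehicle, filled where the adjusted p was under 0.05. In the knockout most points lie between 1.4 and 3.02, whereas with 4-OI the type IV chains, Col6a1, Col6a2, Col6a3, Col5a3 and Col19a1 lie above 0 and Col11a1 below, and with hemin most points lie near 0.

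The abundant fibrillar chains did not pass the test with 4-OI. Col1a1 was at 924, 957 and 833 CPM (0.15, SE 0.13, adjusted p = 0.387) and Col1a2 at 642, 669 and 607 CPM (-0.03, SE 0.09, adjusted p = 0.806 by edgeR's test), and both overlapped vehicle. Col3a1 was at 111, 106 and 96.6 CPM, below all vehicle libraries, with a fold change that missed the threshold (-0.33, SE 0.13, adjusted p = 0.0576). It passed with upper-quartile scaling (-0.36, adjusted p = 0.0484), with DESeq2 (-0.32, adjusted p = 0.0383), on both FPKM scales, with no filter, with only the 2 groups fitted and without the second vehicle replicate. Col2a1 lay between 113 and 121 CPM (-0.19, SE 0.14), Col5a1 between 245 and 288 CPM (0.26, SE 0.10) and Col5a2 between 171 and 179 CPM (0.05, SE 0.07), and none of these passed. Col5a1 lay above all vehicle libraries, and it was called with no filter (adjusted p = 2.89e-06 by edgeR's test), with only the 2 groups fitted (adjusted p = 0.00216) and without the third 4-OI replicate (0.32, adjusted p = 0.0275). Col2a1 was called lower on both FPKM scales (-0.32 and -0.33) and with no filter, and Col1a1 higher with no filter. Col11a2 (-0.51) and Col27a1 (0.14) did not pass either.

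Col5a3 and Col11a1 were the fibrillar exceptions, and they went opposite ways. Col5a3 encodes the third type V chain, found in fewer tissues than its partners. It was at 88.8, 86.4 and 78.4 CPM with 4-OI, above every vehicle library (1.44, SE 0.11, adjusted p = 1.52e-07 by edgeR's test). Col11a1 was at 6.14, 5.57 and 6.87 CPM with 4-OI, below every vehicle library (-1.26, SE 0.12, adjusted p = 1.88e-11).

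The 3 tested type IV chains and 3 of the 4 tested type VI chains rose with 4-OI, each by less than in the knockout. The exception was Col6a4, at 0.844, 0.269 and 0.537 CPM, which overlapped vehicle and was not called (-0.72, SE 0.43). Col4a1 was at 152, 148 and 133 CPM (0.86, SE 0.08) and Col4a2 at 89.8, 88.9 and 80.9 CPM (0.59, SE 0.08). Col6a1 was at 131, 137 and 118 CPM (0.89, SE 0.14), Col6a2 at 89.6, 96.8 and 77.7 CPM (0.95, SE 0.15) and Col6a3 at 135, 145 and 127 CPM (0.60, SE 0.13). Each library with 4-OI lay above all vehicle libraries for these 5 genes, and the highest adjusted p of edgeR's test was 0.00313, for Col6a3. The direct test of knockout minus 4-OI gave 1.29 (SE 0.07) for Col4a1, 1.47 (SE 0.08) for Col4a2 and 1.97 (SE 0.13), 2.07 (SE 0.13) and 2.32 (SE 0.12) for Col6a1, Col6a2 and Col6a3. Col4a5 lay between 3.36 and 4.07 CPM (0.78, SE 0.19, adjusted p = 0.00091).

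Among the remaining chains, Col19a1 rose most with 4-OI, at 16.0, 17.5 and 16.1 CPM against 5.42 to 6.50 CPM in vehicle (1.45, SE 0.11, adjusted p = 2.00e-13 by edgeR's test). Little is known of its fibril-associated product outside muscle and nerve. Col18a1 was at 42.7, 54.4 and 44.1 CPM (0.67, SE 0.08) and lay above vehicle in all 3 libraries. Col16a1 was at 14.3, 15.4 and 14.5 CPM (0.33, SE 0.11, adjusted p = 0.00871) and lost its call on both FPKM scales (0.10 and 0.13), without the second vehicle replicate (0.28) and without the second 4-OI replicate (0.29). Col15a1 was at 1.99, 2.75 and 1.61 CPM (0.95, SE 0.28, adjusted p = 0.00444) and lost its call without the second 4-OI replicate (0.69, adjusted p = 0.0843) and on the FPKM + 1 scale (0.17). Col12a1 (0.12), Col8a1 (-0.10), Col23a1 (-0.19), Col7a1 (-0.16), Col20a1 (0.19), and Col10a1 (0.22) did not pass. Of these, Col12a1 was called higher without the first vehicle replicate (0.17) or the third 4-OI replicate (0.18), Col8a1 lower without the second 4-OI replicate (-0.29), and Col23a1 lower on both FPKM scales (-0.24 and -0.33).

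Direct tests of knockout against 4-OI showed how the chains divided. Of the 27, 22 were higher in the knockout, where 34.2% of all genes tested were called higher, and 1, Col19a1, was lower, where 23.5% were called lower. Col11a1 differed most, at 4.05 (SE 0.10), followed by Col3a1 at 3.33 (SE 0.13) and Col2a1 at 3.01 (SE 0.14). Col5a3 differed by 0.59 (SE 0.10, adjusted p = 0.00023 by edgeR's test), the smallest of the called increases. Col18a1, at 49.7 ± 1.06 CPM in the knockout and 47.1 ± 6.41 CPM with 4-OI, was not called (0.07, SE 0.08, adjusted p = 0.480), except without the second 4-OI replicate (0.19, adjusted p = 0.0409). Col6a4, among the 22, lost its call with DESeq2 (1.20) and without that replicate (0.84). Col19a1 differed by -1.83 (SE 0.12).

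The processing lists are given with 4-OI beside the all-gene shares of 25.4% called higher and 25% called lower. Of the cleavage and cross-linking list, 8 of 13 rose, with a median of 0.29, among them Adamts2 at 0.76 (SE 0.09) and Bmp1 at 0.61 (SE 0.07). Of the hydroxylation and folding list, 11 of 20 rose, with a median of 0.22, and 1 fell. That gene was Plod1, a lysyl hydroxylase, at 179 ± 4.55 CPM with 4-OI and 298 ± 9.86 CPM in vehicle (-0.73, SE 0.05). Of the receptor list, 4 of 10 rose and 2 fell, the latter near the share over all genes. Mrc1, the mannose receptor, which also binds collagen, was at 484 ± 2.29 CPM with 4-OI and 1496 ± 33.0 CPM in vehicle (-1.63, SE 0.05), the larger of the 2 decreases. Plod1 and Mrc1 are outside the naming rule with 4-OI and were chosen after their values were seen. The stroma markers summed to between 454 and 463 CPM with 4-OI, above the 382 to 437 CPM in vehicle, with 3 of 12 called higher and 2 lower, neither above the shares over all genes. The osteoblast markers summed to between 11.4 and 14.2 CPM against 14.3 to 16.0 CPM in vehicle, with 2 of 5 called lower. The pericyte and smooth muscle markers summed to between 396 and 442 CPM against 322 to 364 CPM, but did not move together. Of 7 tested, 2 were called higher and 2 lower, with log2 fold changes from -0.66 to 1.16. Neutrophil markers summed to between 338 and 360 CPM against 82.6 to 93.7 CPM, but rose unequally. Of 4 tested, 2 were called higher and 0 lower, with log2 fold changes from 0.30 to 3.69. Ly6g was listed in no library, and Elane and Camp stayed under 10 expected counts. The part of these cell types in the collagen changes was not tested.

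Hemin, given at the same hours as vehicle, left most collagen genes without a call, as it did most of all genes tested. Of 27 members, 3 rose, where 9.48% of all genes tested were called higher, and 3 fell, where 7.74% were called lower. Both counts are near the shares over all genes. The median of the 27 was -0.15, against -0.006 over all genes tested. Col5a3 was at 42.1, 52.7 and 44.2 CPM (0.58, SE 0.12, adjusted p = 0.0046 by edgeR's test), Col18a1 at 42.2, 43.8 and 45.6 CPM (0.56, SE 0.08) and Col19a1 at 7.74, 9.00 and 8.05 CPM (0.45, SE 0.13, adjusted p = 0.0112). These 3 lay above all vehicle libraries, although Col19a1 lost its call on both FPKM scales (0.16 and 0.35) and without the second hemin replicate (0.38).

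Col11a1 fell most with hemin, at 9.12, 9.08 and 7.90 CPM, below every vehicle library (-0.75, SE 0.11). Col5a2 was at 135, 152 and 133 CPM against 150 to 187 CPM in vehicle, so the groups overlapped (-0.28, SE 0.07, adjusted p = 0.00487 by edgeR's test). Col12a1 was at 113, 124 and 111 CPM against 127 to 146 CPM (-0.24, SE 0.07, adjusted p = 0.0103), and lost its call without the first vehicle replicate (-0.20) and without the first (-0.22) or the third (-0.21) hemin replicate. Col3a1 was at 82.1, 116 and 101 CPM and missed the threshold (-0.39, SE 0.13, adjusted p = 0.0681). It was called with DESeq2 (-0.42, adjusted p = 0.0161), on both FPKM scales, with no filter, without the second vehicle replicate and without the second hemin replicate. Col1a1, at 660, 892 and 740 CPM, and Col1a2, at 519, 662 and 556 CPM, overlapped vehicle (-0.09, SE 0.13, and -0.17, SE 0.09). Col4a1 (-0.03, SE 0.08), Col4a2 (-0.05, SE 0.08), Col6a1 (0.20, SE 0.14), Col6a2 (0.25, SE 0.15) and Col6a3 (-0.15, SE 0.13) did not pass. With no filter, Col6a1, Col6a2 and Col1a2 were called (adjusted p = 0.00599, 0.00117 and 0.00673 by edgeR's test). Col6a2 was also called without the first hemin replicate (0.39), and Col1a2 without the second vehicle replicate (-0.25) or the second hemin replicate (-0.28). The stroma markers summed to between 339 and 424 CPM with hemin, overlapping vehicle.

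The first hemin library was lowest of its group for Col1a1, Col1a2, Col3a1, Col2a1, Col6a1, Col6a2 and Col6a3, and it was also the shallowest of the 12. Against the knockout, 22 of 27 members were lower with hemin and Col19a1 was higher, where 24% of all genes tested were called higher in the knockout and 19% lower. Col11a1 differed by 3.54 (SE 0.09) and Col3a1 by 3.40 (SE 0.13). Col18a1 differed by 0.18 (SE 0.08, adjusted p = 0.0747 by edgeR's test) and was called with only the 2 groups fitted (adjusted p = 0.0256). Col6a4, among the 22, lost its call with DESeq2 (1.21) and without the second knockout (1.08) or the second hemin (0.89) replicate.

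Ratios between chains of a library do not depend on the library's scaling. Type I collagen holds more α1 than α2 chains. The ratio of Col1a1 to Col1a2 in FPKM was 1.09, 1.03 and 1.14 in vehicle, 1.21, 1.21 and 1.19 in the knockout, 1.26, 1.25 and 1.20 with 4-OI and 1.11, 1.18 and 1.16 with hemin. The knockout and 4-OI libraries lay above vehicle, and hemin overlapped it. The ratio of Col3a1 to Col1a1 was 0.172, 0.180 and 0.171 in vehicle, rose to 0.229, 0.237 and 0.234 in the knockout, and was lower with 4-OI at 0.129, 0.119 and 0.124 and with hemin at 0.133, 0.139 and 0.146. None of these groups overlapped vehicle. With 3 libraries against 3, an exact two-sided permutation test cannot give a p below 0.1, and each difference that showed no overlap had exact p = 0.1. Adjusted over the 5 planned ratios of a comparison, the exact p of those without overlap was 0.1 in the knockout, 0.125 with 4-OI and 0.25 with hemin.

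The ratio of Col4a1 to Col4a2 lay between 1.34 and 1.35 in vehicle, between 1.39 and 1.46 in the knockout and between 1.60 and 1.64 with 4-OI. With hemin it lay between 1.30 and 1.43 and overlapped vehicle (exact permutation p = 0.7). The ratio of Col5a1 to Col5a2 was 1.03 ± 0.0298 in vehicle, 1.17 ± 0.058 in the knockout, 1.19 ± 0.0676 with 4-OI and 1.24 ± 0.0875 with hemin, without overlap with vehicle in any of the 3 groups. Col6a1 to Col6a2 was 1.43 ± 0.063 in vehicle and 1.29 ± 0.0209 in the knockout, and it overlapped vehicle with 4-OI and with hemin.

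A further 4 ratios were chosen after the data were seen. Col5a3 to Col5a1 was 0.206, 0.177 and 0.199 in vehicle, 0.157, 0.133 and 0.163 in the knockout, 0.448, 0.416 and 0.443 with 4-OI and 0.288, 0.281 and 0.295 with hemin. It was thus below vehicle in the knockout and above it with both compounds. Col11a1 to Col1a1 was 0.0140 ± 0.00064 in vehicle, 0.0160 ± 0.00036 in the knockout, 0.0053 ± 0.00097 with 4-OI and 0.0090 ± 0.0014 with hemin. Col6a1 to Col1a1 was 0.130 ± 0.0023 in vehicle, 0.158 ± 0.0052 in the knockout, 0.215 ± 0.0011 with 4-OI and 0.157 ± 0.0099 with hemin. Col2a1 to Col1a1 was 0.192 ± 0.0051 in vehicle, 0.226 ± 0.0099 in the knockout, 0.151 ± 0.0055 with 4-OI and 0.183 ± 0.0158 with hemin, where it overlapped vehicle.

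**Figure D5:**
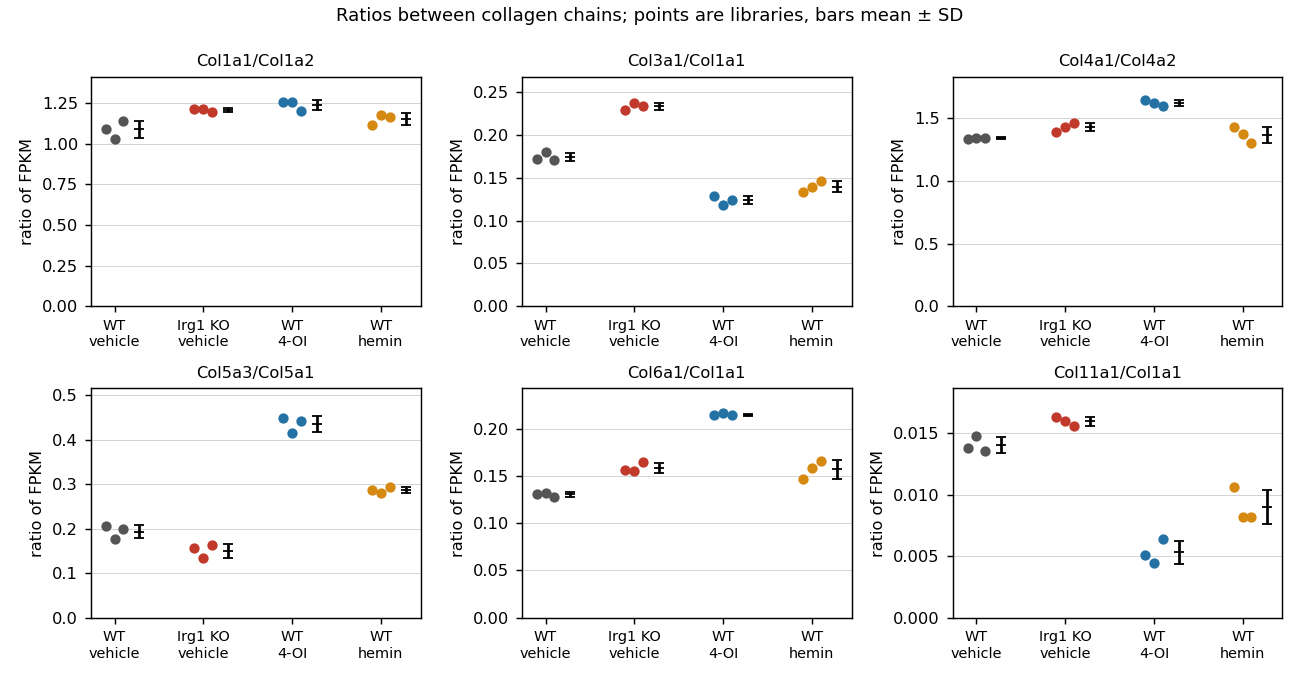
Ratios of FPKM between chains in each library (points) for 6 of the ratios, with the group mean ± SD (black marks), each axis starting at 0. Col3a1/Col1a1 is above vehicle in the knockout and below it with 4-OI and hemin, and Col5a3/Col5a1 is below vehicle in the knockout and above it with both compounds.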

How the data were processed

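RNA-seq files of 12 libraries were used. The tools named per the submitters' processing notes are RSEM, Bowtie2, StringTie and HISAT2, with build GRCm39 (mm39); their settings are not given in the sources used here. The deposited expected counts, per the file headers, are estimated reads per gene, and the deposited FPKM divide them by transcript length and library total. A gene missing from a file counted as 0. Expected counts were rounded and tested in R 4.3.3 with edgeR 4.0.16 (filterByExpr, TMM, robust quasi-likelihood F test, all 12 libraries in 1 fit), adjusted over the 12148 genes tested; the SE was derived from the log2 fold change and its F statistic (size over root F). Library totals of 9405112 to 22390882 set the precision; the common biological coefficient of variation was 4.71%.

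Alternatives were RLE and upper-quartile factors, DESeq2 1.42.0, limma-trend 3.58.1 on log2(FPKM + 1) or log2(FPKM + 0.1), no filter, 10 counts in 6 libraries, only the groups compared, a replicate block and leaving out each replicate. Named were all members of at least 1 CPM or past the filter, and up to 4 genes per other list in order of adjusted p in the knockout. The members and lists were chosen with earlier results of these data known. RefSeq windows and the annotation are of build GRCm38.p6, so no position of the files' build is given. Tables and plots were made with Python 3.11.15, pandas 2.3.3 and matplotlib 3.10.9.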

Additional observations from a re-analysis of the deposited data

How the results depend on the processing

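The count of collagen genes called higher in the knockout stayed between 22 and 24 under every alternative run, and with 4-OI between 9 and 13. The count called lower in the knockout (1) was 0 with DESeq2 and on both FPKM scales, and 0 to 1 with 1 replicate left out. With 4-OI, the count called lower (1) was 2 with upper-quartile factors, with DESeq2 and with only the 2 groups fitted, 4 on both FPKM scales and with no filter, and 1 to 3 with 1 replicate left out. With hemin and no filter, 5 genes were called higher and 5 lower, and 2 to 5 were lower with 1 replicate left out. The 4-OI ratio of summed basement membrane level (1.52 in FPKM) was 1.67 in scaled CPM. The hemin difference in Col4a1/Col4a2 (log2 0.026) ranged from -0.00495 to 0.0601 with 1 replicate left out.

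Changes of sign touched only values not called. With 4-OI on the FPKM + 1 and + 0.1 scales, Col5a2 was -0.0925 and -0.0955 and Col12a1 -0.0238 and -0.0255, and Col10a1 was -0.00103 with + 1. Col10a1 was -0.0260 with hemin on the + 0.1 scale. Knockout minus 4-OI, Col23a1 was -0.00264 with RLE factors, -0.00238 with DESeq2 and -0.0290 with only the 2 groups, and Col20a1 was -0.0233 with the latter. Knockout minus hemin, Col23a1 was -0.00333 with RLE factors, -0.0115 with DESeq2 and -0.0161 with no filter. With 1 replicate left out and 4-OI, Col1a2 ranged from -0.113 to 0.0134, Col5a2 from -0.043 to 0.111, Col8a1 from -0.295 to 0.030, Col7a1 from -0.476 to 0.054 and Col10a1 from -0.140 to 0.587. With hemin, Col1a1 ranged from -0.218 to 0.0050, Col5a1 from -0.134 to 0.057, Col4a1 from -0.125 to 0.037, Col4a2 from -0.141 to 0.0030 and Col10a1 from -0.174 to 0.647. Against 4-OI the knockout ranged from -0.0048 to 0.195 for Col18a1, -0.041 to 0.106 for Col23a1 and -0.071 to 0.175 for Col20a1, and against hemin from -0.086 to 0.115 for Col23a1. The cause was not tested.

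On the FPKM + 1 and + 0.1 scales the median of all genes moved to -0.105 and -0.136 with 4-OI, and 1743 and 1762 genes were called higher and 4608 and 4640 lower, against 3083 and 3043. With hemin the FPKM scales gave 621 and 624 higher and 1422 and 1403 lower, against 1152 and 940. Knockout minus 4-OI, they gave 5357 and 5344 higher and 1767 and 1762 lower, against 4159 and 2852. Same-numbered replicates did not deviate together, with correlations of -0.079 to 0.067 in the comparisons with vehicle, so the numbers are not taken as pairs. With a replicate block, 22 collagen genes were higher in the knockout, 11 with 4-OI and 3 with hemin, and knockout minus hemin, 23 were higher in place of 22, Col18a1 being added (0.18).

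Genes under about 1 CPM rest on few counts, which limits the size of difference that can be called there. The 3 libraries a group limit the chain ratios to the smallest exact p of 0.1.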

Other observations

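Several collagen genes are neighbours in the GRCm38 annotation, and their values are given side by side. Col4a1 and Col4a2 lie head to head with 22 overlapping exonic bases, and rose by 2.15 and 2.06 in the knockout and by 0.86 and 0.59 with 4-OI. Whether counting used strand is not given in the sources used here, so reads in the overlap cannot be assigned. Col3a1 and Col5a2, which lie on opposite strands, rose by 3.00 and 2.20 in the knockout, and with 4-OI gave -0.33 and 0.05, neither called. Col6a2 and Col6a1 lie on the same strand and rose by 3.02 and 2.86 in the knockout and by 0.95 and 0.89 with 4-OI. Col19a1 lies beside Col9a1, which stayed at or under 2 expected counts while Col19a1 reached 17.5 CPM. Col4a5 lies beside Col4a6, which had 1 expected count in a single library.

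Endothelial markers summed to between 36.7 and 41.1 CPM in vehicle and between 30.8 and 34.3 CPM in the knockout. With 4-OI they summed to between 9.97 and 11.6 CPM, and with hemin to between 17.9 and 19.8 CPM. Of 5 tested, 2 were called lower in the knockout, 2 with 4-OI (range -2.52 to 0.48) and 1 with hemin. Over all genes tested, 16.3%, 25% and 7.74% were called lower. Tek, Tie1 and Robo4 stayed under 10 expected counts. The part of endothelial cells in the collagen result was not tested. Comp, a cartilage matrix protein, was at 0.301 ± 0.206 CPM in vehicle, 0.868 ± 0.0726 CPM in the knockout and 1.60 ± 0.324 CPM with 4-OI, with log2 fold changes of 1.62 (SE 0.44) and 2.50 (SE 0.40), and adjusted p of 0.00318 and 2.34e-06 by edgeR's test. The low-count filter admits a gene on the libraries of a single group, and Comp was low in vehicle, so these calls are not taken as support. Of the adipocyte list, only Lipe was tested and it did not pass in any comparison with vehicle. Lair1 fell by 0.40 (SE 0.05) in the knockout and rose by 0.21 (SE 0.05) with hemin.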
